A study of Sus scrofa with 24 samples.

Results

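Testes of young boars dosed with canola oil were compared between 3 and 2 weeks of age, the first weeks after the start of an oral letrozole trial in which these boars were the vehicle arm. The comparison holds 8 of the 24 testis libraries of the study, 4 at 3 weeks and 4 at 2 weeks, and the members were chosen by the treatment and age in their labels. All boars came from the PIC genetic background, a commercial pig line, and all were dosed once a week by mouth from 1 week of age, so the vehicle boars of both ages had been handled and given oil. Each of 4 litters, numbered 14, 15, 39 and 41, gave 1 vehicle boar at 2 weeks and 1 at 3 weeks, and no boar was sampled at both ages. The letrozole arm, 4 boars at 2 weeks and 4 at 3 weeks from the same litters, received 0.1 mg/kg of letrozole, which inhibits aromatase, and is compared with the vehicle arm where a vehicle difference is tested. Boars of 5 weeks are described by their levels alone. The letrozole and 5-week boars also enter the edgeR fit of 23 libraries, which sets the spread and the litter block, and the fit of the 8 vehicle libraries alone called 0 genes as well. The piglets were not yet weaned at either age, and the whole testis was frozen, so less RNA per cell and fewer cells of a type cannot be told apart in any value here.

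In the first weeks after birth a pig testis has no sperm production. Its seminiferous cords hold Sertoli cells, which divide before puberty and secrete anti-Müllerian hormone and inhibin, and gonocytes that are turning into spermatogonia. Between the cords lie Leydig cells, which in the newborn pig make large amounts of androgens, estrogens and the peptide hormone INSL3, together with macrophages, fibroblasts and vessels.

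No gene passed the test between 3 and 2 weeks. With edgeR's quasi-likelihood test on 15597 genes, with litter as a block, 0 genes had an adjusted p under 0.05 (0%), and the smallest adjusted p was 0.366. At an unadjusted p under 0.05 there were 731 genes with higher values at 3 weeks (4.69% of those tested) and 648 with lower values (4.15%), 1379 in all. DESeq2 with the same model called 5 genes (0.0321%), 3 higher and 2 lower. Over all genes 7890 had a positive log2 fold change (50.6%) and 7707 a negative one (49.4%), with a median of 0.0059. The following values therefore describe these boars, and none of the genes below passed edgeR's test. A log2 fold change is 3 weeks over 2 weeks with its standard error (SE), and levels are counts per 1000000 exon reads (CPM) after scaling, given with the SD (standard deviation) among the boars of a group.

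The 4 litters did not move alike. Between 25038915 and 41805944 exon reads were counted in the 8 libraries. Per the file headers, the 2-week libraries of litters 14 and 15 were sequenced on lane 7 and their 3-week libraries on lane 2, while litter 39 stayed on lane 8 and litter 41 on lane 5 at both ages. The share of gene reads that lay in introns went with this. It stood at 7.95% and 13.2% at 2 and 3 weeks in litter 14 and at 4.91% and 14.1% in litter 15. In litter 39 it was 7.85% and 7.53%, and in litter 41 6.32% and 6.10%. Over the 4 litters the log2 ratio averaged 0.54 ± 0.75 (SD; exact two-sided sign-flip p = 0.5, a test that cannot reach 0.05 with 4 litters). The mitochondrial share of exon reads was 7.58% and 12.7% in litter 14, and ranged from 6.83% to 16.6% in the remaining 6 libraries, with higher values at 3 weeks in 3 litters (exact sign-flip p = 0.375). The change of a gene within a litter had an SD over genes of 0.74 in litter 14 and 0.73 in litter 15, against 0.49 in litter 39 and 0.50 in litter 41. Changes of more than 1 on the log2 scale were seen in 13.5% and 13.6% of genes in litters 14 and 15 and in 4.78% and 5.08% in litters 39 and 41. Across genes, the changes of litters 14 and 15, which share both lanes, had a Pearson correlation of 0.54 over 15597 genes, and the other 5 pairs of litters lay between -0.04 and 0.06. In the letrozole boars of litters 14 and 15, with the same change of lane, the correlation was -0.20. The intron share of those letrozole boars was 9.51% at 2 weeks and 7.82% at 3 weeks in litter 14, and 5.77% and 17.7% in litter 15, so it did not always go with the lane. The part of the lane and of the intron share in the results was not tested. Values within litters 39 and 41, which kept their lane and moved little in intron share, are given beside many of the results. Litter 15 carries a further doubt, since its 3-week library from the boar labelled vehicle has letrozole in its header. Without that library edgeR again called 0 genes, and the values were -1.33 for INSL3, -1.57 for AMH, 1.07 for FOSL2 and -0.97 for OLFML2B, beside -0.38 for the median of proliferation genes. The 2-week boar of litter 41 was the lowest or highest of its group by a wide margin for several of the genes named below.

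**Figure D1:**
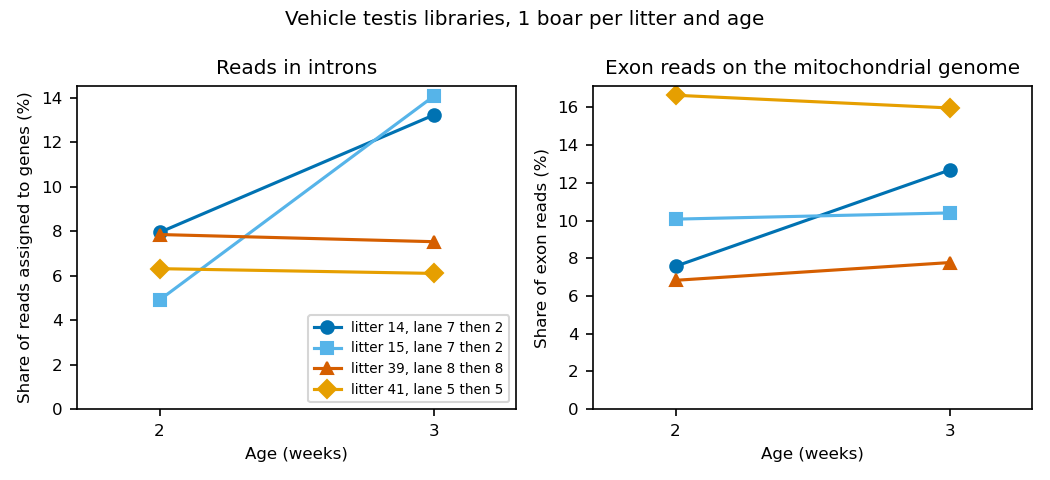
Share of gene reads in introns (left, %) and share of exon reads on the mitochondrial genome (right, %) in the 8 vehicle libraries by age in weeks, 1 line per litter with its lanes. The intron share is 13.2% and 14.1% at 3 weeks in litters 14 and 15 and between 4.91% and 7.95% in the other 6 libraries.

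The markers of an immature testis were in place at both ages. By the authors' RPKM, which is per length of exon, levels were ranked among genes with a symbol outside the mitochondrial genome. INSL3 was the most abundant of these, with a median of 7258 over the 8 boars. CYP17A1, the androgen-forming enzyme, followed with 3167. Sertoli cell genes were also abundant, among them CLU with a median of 865 and INHA with 325. The spermatid gene ODF1 was at 0 in every library, and PRM1, PRM2 and ACRV1 had at most 1 read in any library and TNP1 at most 5. The epididymis gene CRISP1 and the muscle and fat genes ACTA1 and ADIPOQ had medians of 0.0234, 0.0103 and 0.0109 RPKM. Other markers of these tissues were detected, with medians of 4.56 RPKM for the duct gene WFDC2, 5.66 for the muscle creatine kinase CKM and 0.741 for the fat gene FABP4. Blood was present, with HBB, the beta chain of haemoglobin, between 231 and 2461 RPKM.

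Among the genes higher at 3 weeks in every litter, RASSF3 (ENSSSCG00000039060, chromosome 5, 29025549 to 29113891 in the authors' tables), a Ras-association domain protein, had the smallest p. RASSF3 stood at 48.7, 66.2, 48.3 and 84.9 CPM at 2 weeks and at 115, 94.3, 97.3 and 112 CPM at 3 weeks in litters 14, 15, 39 and 41. All 3-week boars lay above all 2-week boars, which held for 187 genes (1.2%), and the log2 fold change was 0.77 ± 0.16 (edgeR adjusted p = 0.555, DESeq2 adjusted p = 0.0387). FOSL2 (ENSSSCG00000032527, chromosome 3, 110819947 to 110842850), a subunit of the AP-1 transcription factor, was at 23.2, 22.4, 27.1 and 30.6 CPM at 2 weeks and at 72.2, 70.9, 47.3 and 39.7 CPM at 3 weeks. The groups did not overlap, but the difference was wider in litters 14 and 15 (log2 1.63 and 1.66) than in litters 39 and 41 (0.80 and 0.37). AMDHD1 (ENSSSCG00000000893, chromosome 5, 87553022 to 87569246), an enzyme of histidine breakdown, was at 4.18, 2.95, 3.86 and 3.03 CPM at 2 weeks and at 8.21, 8.67, 6.96 and 4.42 CPM at 3 weeks (0.99 ± 0.22). DESeq2 gave adjusted p of 0.0462 for FOSL2 and 0.0464 for AMDHD1.

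The other 7 leading genes on this side had, as the other genes named here with an unadjusted p under 0.05 except OLFML2B, an edgeR adjusted p of 0.555. ACSL6, which activates long-chain fatty acids, averaged 88.4 ± 18.7 CPM at 2 weeks and 154 ± 48.1 CPM at 3 weeks (SD, n = 4 each), a log2 fold change of 0.79 ± 0.19. The sulfate transporter SLC26A2 was at 252, 191, 126 and 125 CPM at 2 weeks and at 560, 235, 280 and 246 CPM at 3 weeks, with a log2 fold change of 0.87 ± 0.21 that was 1.06 in litters 39 and 41 alone. BTBD11, a BTB domain protein, had 1.12 ± 0.27, and was the gene of this group with the largest value in litters 39 and 41 alone (1.26). The secretory granule protein SCG3 had 1.06 ± 0.26, the lysosomal transporter SLC46A3 0.89 ± 0.23, the lipase DDHD2 0.52 ± 0.14 and the sensory channel gene TMC1 0.90 ± 0.24. SLC46A3 and TMC1 differed little in litter 41, where the changes were 0.04 and 0.07. The groups did not overlap for BTBD11, SCG3 and SLC46A3, and did for ACSL6, SLC26A2, DDHD2 and TMC1. Higher values in 4 of 4 litters, the condition that chose these genes, were seen in 1527 genes (9.79%).

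Of the genes lower at 3 weeks in every litter, OLFML2B had the smallest p of all genes. OLFML2B (ENSSSCG00000006345, chromosome 4, 88521893 to 88561010), a secreted olfactomedin-like protein, stood at 96.6, 125, 166 and 55.4 CPM at 2 weeks and at 50.5, 47.8, 71.4 and 32.4 CPM at 3 weeks. Each litter's 3-week boar had the lower value, while the groups overlapped, since the 2-week boar of litter 41 lay below the 3-week boar of litter 39. The log2 fold change was -1.08 ± 0.19 (edgeR adjusted p = 0.366, DESeq2 adjusted p = 0.00147) and -1.03 in litters 39 and 41 alone. RNASE1 (ENSSSCG00000031649, chromosome 7, 78213005 to 78234598), a secreted ribonuclease, was at 21.8, 19.7, 18.0 and 31.4 CPM at 2 weeks and at 9.10, 11.5, 13.9 and 22.1 CPM at 3 weeks (-0.74 ± 0.17, DESeq2 adjusted p = 0.0462). Lower values in 4 of 4 litters were seen in 1388 genes (8.9%), and 118 genes had every 3-week boar below every 2-week boar (0.757%).

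The next genes on this side included 3 that act in dividing cells. The nuclear import receptor KPNA2 was at 129, 163, 161 and 153 CPM at 2 weeks and at 85.7, 109, 113 and 119 CPM at 3 weeks. Its groups did not overlap, and its change was similar in every litter, between -0.58 and -0.37 (-0.51 ± 0.13). CKS2, a subunit of cyclin-dependent kinases, was at 61.5, 68.7, 75.1 and 77.3 CPM at 2 weeks and at 41.1, 40.3, 44.1 and 69.2 CPM at 3 weeks (-0.57 ± 0.15). RPA2, which coats single-stranded DNA in replication, averaged 78.0 ± 14.0 CPM and 57.1 ± 13.9 CPM (-0.47 ± 0.12). IGF2BP3, a fetal mRNA-binding protein, averaged 13.1 ± 3.17 CPM and 8.82 ± 2.76 CPM (-0.59 ± 0.16), but only 25.3% of its reads were unique to it, so the count is uncertain. Other genes on this side were the matrix protein gene CHADL (-1.04 ± 0.26), CCDC117 (-0.71 ± 0.19) and the tight junction gene CLDN4 (-0.99 ± 0.27, with 63.6% unique reads).

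**Figure D2:**
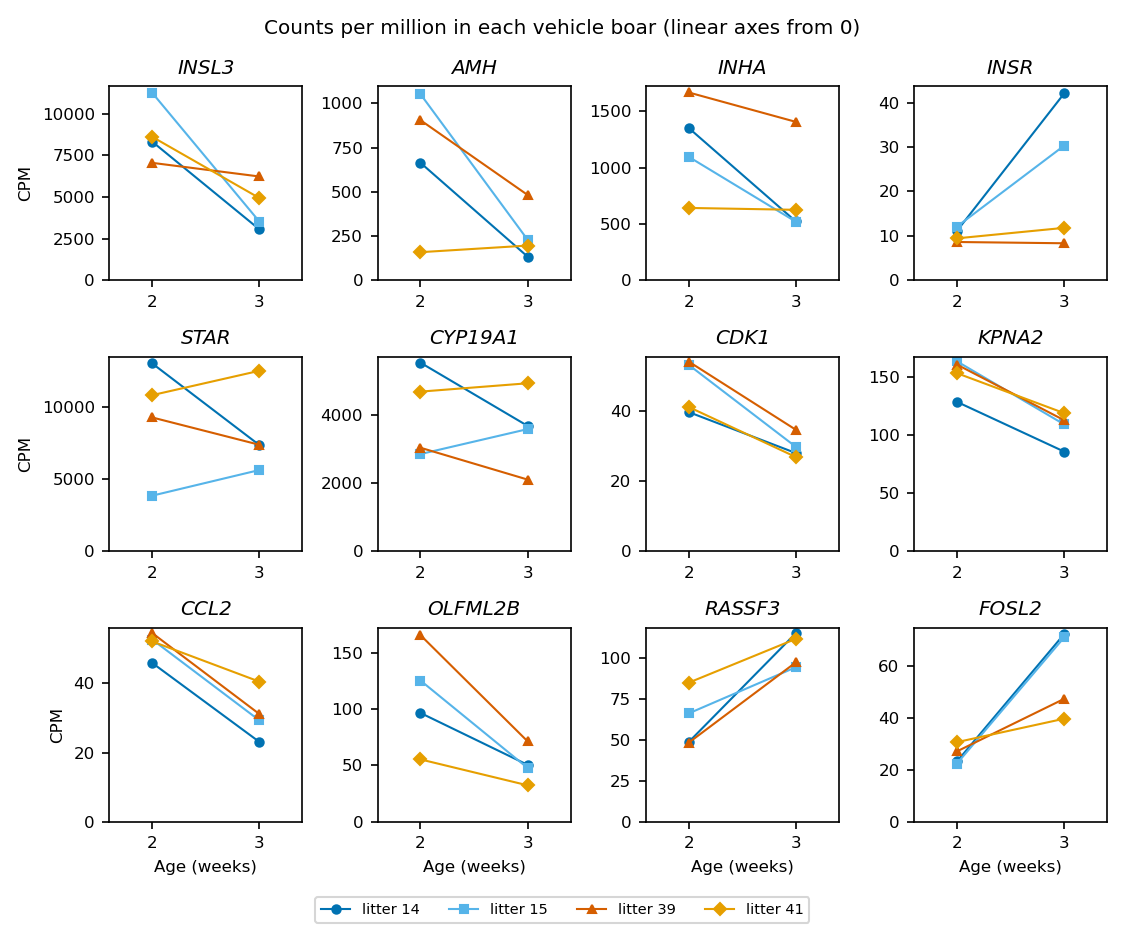
CPM of 12 genes in each vehicle boar at 2 and 3 weeks of age, on linear axes that start at 0, with lines joining the boars of a litter. RASSF3 lies above its 2-week values in all 4 boars of 3 weeks, INSR stands at 42.1 and 30.3 CPM at 3 weeks in litters 14 and 15 and at 8.33 and 11.8 CPM in litters 39 and 41, and STAR and CYP19A1 go up in some litters and down in others.

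Genes of cell division were the list with the most members at a low p. Of 37 symbols 33 were in the tables and all 33 were tested. At 3 weeks 30 had lower values and 3 higher, with a median log2 fold change of -0.29, and 13 had an unadjusted p under 0.05, each of them lower (4.15% of all genes). Lower values in 4 of 4 litters were found for 16 members, against 8.9% of all genes, and 4 had every 3-week boar below every 2-week boar, against 0.757%. CDK1, the kinase that drives entry into mitosis, was at 39.6, 53.1, 54.0 and 41.1 CPM at 2 weeks and at 27.9, 29.7, 34.6 and 26.8 CPM at 3 weeks. The groups did not overlap, and the change was -0.50, -0.84, -0.64 and -0.61 in litters 14, 15, 39 and 41 (-0.66 ± 0.19). MCM6, a subunit of the replication helicase, averaged 172 ± 27.1 CPM and 123 ± 15.5 CPM (-0.48 ± 0.15). CDC20, which activates the anaphase-promoting complex, was lower in 4 of 4 litters (-0.54 ± 0.17), with 45.9% unique reads. The median of the list was 0.13 in litter 14, -0.12 in litter 15, -0.64 in litter 39 and -0.36 in litter 41. It was thus lowest in the litters that kept their lane, where the fit of those litters alone gave -0.53. The median stayed below 0 in each of the 21 alternative fits, between -0.53 and -0.10. Cell cycle inhibitors had no common direction, with 6 of 14 higher and a median of -0.08. Their median turned above 0 in litters 39 and 41 alone (11 of 14 higher, 0.10), with lane terms (10 of 14, 0.19) and with the intron share in the fit (10 of 14, 0.10).

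Histone genes had a median of -0.40, with 8 of 12 tested members lower, of 24 symbols. The variant histone H2AFZ was at 210, 247, 214 and 233 CPM at 2 weeks and at 82.8, 106, 171 and 185 CPM at 3 weeks (-0.84 ± 0.27). The groups did not overlap, and the change was -1.34 and -1.22 in litters 14 and 15 and -0.32 and -0.33 in litters 39 and 41. Imprinted genes and genes of fetal growth had 15 of 20 tested members lower, a median of -0.18 and litter medians between -0.21 and -0.12. The imprinted growth suppressor NDN averaged 44.5 ± 6.52 CPM at 2 weeks and 34.3 ± 4.66 CPM at 3 weeks (-0.39 ± 0.17), with -0.14 in litters 39 and 41 alone. DLK1, an imprinted gene of fetal and immature Leydig cells, was at 3.67, 20.5, 4.67 and 2.93 CPM at 2 weeks and at 2.52, 2.38, 3.56 and 3.08 CPM at 3 weeks. Its log2 fold change of -1.07 ± 0.44 rested on the 2-week boar of litter 15, and it was -0.24 in litters 39 and 41 alone. IGF2 and H19 were not analysed here.

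**Figure D3:**
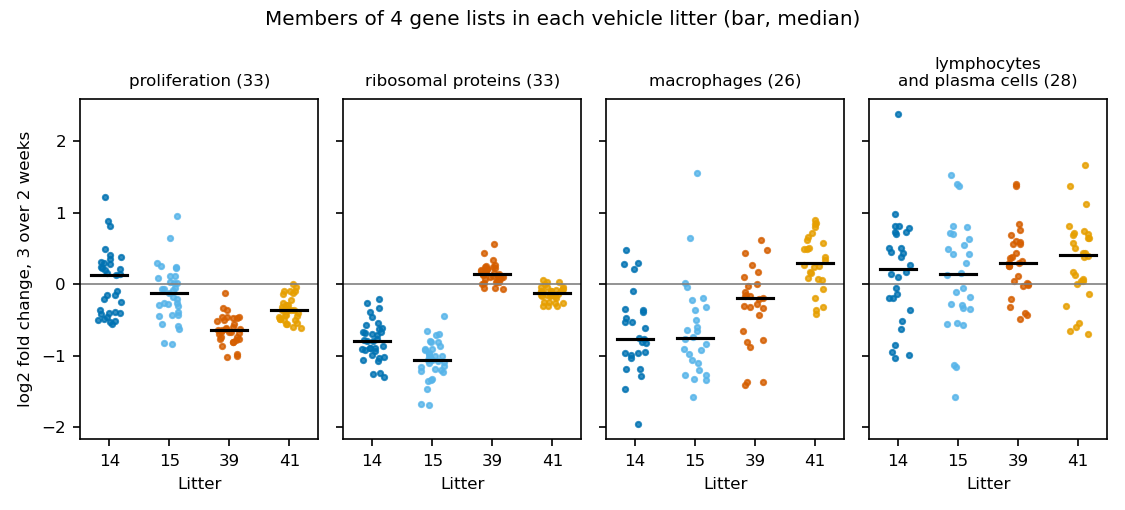
Log2 fold change, 3 over 2 weeks, of each tested member of 4 gene lists in each vehicle litter, with a bar at the median. Proliferation genes have medians of -0.64 and -0.36 in litters 39 and 41, ribosomal protein genes have -0.79 and -1.06 in litters 14 and 15, macrophage genes range from -0.76 in litter 14 to 0.30 in litter 41, and the medians of lymphocyte genes lie above 0 in all 4 litters.

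Sertoli cell genes gave no common direction. Of 20 tested members 13 had lower values and 7 higher, with a median of -0.12. An unadjusted p under 0.05 was found for 3, all lower, against 4.15% of all genes. AMH (ENSSSCG00000035812, chromosome 2, 76414427 to 76418315), the anti-Müllerian hormone of immature Sertoli cells, was at 664, 1052, 905 and 159 CPM at 2 weeks and at 133, 229, 482 and 196 CPM at 3 weeks. It was lower in litters 14, 15 and 39 and higher in litter 41, and the groups overlapped. The log2 fold change was -1.54 ± 0.61 (edgeR adjusted p = 0.555), -0.47 in litters 39 and 41 alone and -0.35 with terms for the lanes in the fit, and only 18.7% of the reads of AMH were unique to it. INHA, the inhibin alpha subunit, was at 1351, 1095, 1666 and 642 CPM at 2 weeks and at 521, 519, 1405 and 625 CPM at 3 weeks. The lower values of INHA lay in litters 14 and 15 (-1.37 and -1.08), with -0.25 and -0.04 in litters 39 and 41. AARD, a gene of low level, averaged 0.967 ± 0.550 CPM and 0.502 ± 0.412 CPM (-1.02 ± 0.33), and was lower in 4 of 4 litters. FSHR, the receptor through which follicle-stimulating hormone acts on Sertoli cells, averaged 65.1 ± 31.2 CPM and 63.9 ± 12.0 CPM, a difference of 0.03 ± 0.21.

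Of the genes linked to immature Sertoli cells, 11 of 13 tested had lower values, with a median of -0.20. Those of mature Sertoli cells and the blood-testis barrier had 10 of 15 higher, with a median of 0.03.

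Leydig cell genes had 11 of 20 lower and a median of -0.05, and differed from gene to gene. INSL3 (ENSSSCG00000013887, chromosome 2, 59929584 to 59931219), the peptide that guides descent of the testis, was at 8326, 11260, 7053 and 8616 CPM at 2 weeks and at 3056, 3522, 6233 and 4937 CPM at 3 weeks. Every 3-week boar was below every 2-week boar, and the change was -1.45, -1.68, -0.18 and -0.80 in litters 14, 15, 39 and 41. The log2 fold change was -1.16 ± 0.41 (edgeR adjusted p = 0.555) and -0.49 in litters 39 and 41 alone. LHCGR, the receptor for luteinizing hormone, was at 95.1, 126, 82.3 and 226 CPM at 2 weeks and at 394, 260, 78.3 and 258 CPM at 3 weeks. Its values were higher in litters 14 and 15 (2.05 and 1.05) and close to each other in litters 39 and 41 (-0.07 and 0.19), with 40.3% unique reads (0.74 ± 0.39).

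The enzymes of steroid synthesis had lower values in 18 of 23 tested members, with a median of -0.22 that was -0.05 in litters 39 and 41 alone and 0.0034 when the intron share entered the fit. STAR, which carries cholesterol into mitochondria, was at 13020, 3844, 9271 and 10820 CPM at 2 weeks and at 7352, 5624, 7374 and 12510 CPM at 3 weeks (-0.03 ± 0.52). CYP11A1, which makes pregnenolone from cholesterol, averaged 2683 ± 857 CPM and 2896 ± 665 CPM (0.14 ± 0.31). CYP17A1 averaged 8586 ± 2842 CPM and 8011 ± 1666 CPM (-0.08 ± 0.26). For these genes the boars of a group differed by more than the ages did.

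The aromatase count, CYP19A1 (ENSSSCG00000030168, chromosome 1, 120477197 to 120696877), was at 5530, 2847, 3033 and 4680 CPM at 2 weeks and at 3674, 3580, 2098 and 4925 CPM at 3 weeks. It was higher in 2 litters and lower in 2, with a log2 fold change of -0.10 ± 0.37, and its span covers closely related aromatase genes, so which of them it counts is uncertain. HSD17B3, which forms testosterone, averaged 389 ± 65.0 CPM and 301 ± 79.4 CPM (-0.42 ± 0.18), lower in 4 of 4 litters but with -0.12 in litters 39 and 41 alone. FDXR, which passes electrons to the mitochondrial enzymes, had -0.51 ± 0.22, with -0.18 in litters 39 and 41 alone. The 5-alpha reductase SRD5A1 differed the other way, with 9.82, 10.6, 9.61 and 5.22 CPM at 2 weeks and 25.3, 19.7, 20.3 and 6.53 CPM at 3 weeks (0.94 ± 0.41), higher in 4 of 4 litters and 0.71 in litters 39 and 41 alone. Cholesterol synthesis and uptake had 24 of 31 members lower, a median of -0.20 and none at an unadjusted p under 0.05. That median was -1.16 in litter 14, 0.21 in litter 15, 0.08 in litter 39 and -0.10 in litter 41, and the fit without litter 14 gave 0.04. HSD17B7, a reductase of the late pathway, averaged 42.6 ± 13.0 CPM and 28.6 ± 11.3 CPM (-0.67 ± 0.35), with -0.14 in litters 39 and 41 alone.

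Receptors for sex steroids and gonadotropins had 9 of 12 members higher and a median of 0.19, which was 0.06 in litters 39 and 41 alone. The estrogen receptor ESR1 averaged 14.8 ± 5.81 CPM and 16.8 ± 7.24 CPM (0.14 ± 0.22), with -0.21 in litters 39 and 41 alone. Genes of inhibins, activins and the TGF-beta family had 20 of 34 higher and a median of 0.14, which was -0.05 in litters 39 and 41 alone.

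Germ cell genes were expressed at low levels and had no common direction. Of 33 tested members, of 47 symbols, 20 had lower values and 13 higher, with a median of -0.15. SALL4, a transcription factor of spermatogonia, was at 3.04, 3.41, 3.42 and 6.31 CPM at 2 weeks and at 2.77, 2.93, 1.68 and 3.62 CPM at 3 weeks. Lower in 4 of 4 litters, SALL4 had a log2 fold change of -0.58 ± 0.25 and -0.91 in litters 39 and 41 alone. Its 2-week boar of litter 41 lay far above the others of that group. ZBTB16 of the same list went the other way, with 6.26 ± 2.89 CPM at 2 weeks and 11.6 ± 6.51 CPM at 3 weeks. It was higher in 4 of 4 litters (0.80 ± 0.42) and 0.43 in litters 39 and 41 alone. Genes of meiosis and spermatids numbered 29 in the tables, of which 21 were tested, with 9 higher, 12 lower and a median of -0.07. SYCE2, a protein of the synaptonemal complex, averaged 2.20 ± 0.288 CPM and 1.31 ± 0.224 CPM (-0.74 ± 0.28), with 67.2% unique reads, and its sign turned with all gene reads in place of exon reads (0.20). MSH5, which acts in meiotic crossing over, averaged 3.82 ± 2.05 CPM and 6.04 ± 2.11 CPM (0.68 ± 0.32).

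Macrophage genes had lower values in 24 of 26 members, with a median of -0.32. The summed level of the list was between 741 and 1207 CPM at 2 weeks and between 524 and 1006 CPM at 3 weeks. The litter medians were -0.76, -0.75, -0.20 and 0.30, and the fit of litters 39 and 41 alone gave -0.0021. CCL2, a chemokine that draws monocytes, was the macrophage list's gene with the smallest p. CCL2 was at 45.9, 52.7, 54.5 and 52.1 CPM at 2 weeks and at 23.1, 29.3, 31.1 and 40.5 CPM at 3 weeks, with no overlap (-0.75 ± 0.22). The value in litters 39 and 41 alone was -0.56. TIMD4, a receptor of resident macrophages, was lower in 3 litters and higher in litter 41 (-0.85 ± 0.39), with -0.41 in litters 39 and 41 alone. FCGR1A of the same list went the other way (0.49 ± 0.23). Its changes were 0.48, 1.55, -0.002 and 0.08 in litters 14, 15, 39 and 41. Of the 26 members, those at an unadjusted p under 0.05 were thus 2 lower and 1 higher, against 4.15% and 4.69% of all genes.

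Lymphocyte and plasma cell genes had higher values in 20 of 28 members, with a median of 0.24. Their litter medians were 0.22, 0.15, 0.29 and 0.41, and 7 members were higher in 4 of 4 litters, against 9.79% of all genes. At an unadjusted p under 0.05 were 5 higher members and 1 lower, against 4.69% and 4.15% of all genes. The lower one was CXCR4 (-0.66 ± 0.29). Their summed level, between 133 and 146 CPM at 2 weeks and between 118 and 174 CPM at 3 weeks, overlapped between the ages. GZMB, a protease of cytotoxic cells, was at 0.355, 0.326, 0.287 and 0.149 CPM at 2 weeks and at 0.441, 0.585, 0.860 and 0.632 CPM at 3 weeks (1.08 ± 0.33). MS4A1, the B-cell antigen CD20, averaged 0.233 ± 0.153 CPM and 0.590 ± 0.107 CPM (1.40 ± 0.45), and neither of these genes had overlapping groups. Both rest on few reads, between 3 and 22 per library for GZMB and between 2 and 18 for MS4A1. The T-cell adhesion molecule CD2 averaged 1.75 ± 0.462 CPM and 2.78 ± 0.470 CPM (0.69 ± 0.26), higher in 4 of 4 litters.

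Fibroblast and matrix genes had 22 of 31 members higher and a median of 0.12, with 0.19 and 0.57 in litters 14 and 15 and -0.06 and -0.18 in litters 39 and 41. PI16, a marker of fibroblast progenitors in several tissues, was at 6.07, 4.33, 12.3 and 2.98 CPM at 2 weeks and at 10.9, 11.9, 28.2 and 3.75 CPM at 3 weeks. It was higher in 4 of 4 litters (0.98 ± 0.26) and 0.86 in litters 39 and 41 alone. The fibril-associated collagen COL14A1 had 0.49 ± 0.19 and the small proteoglycan ASPN 1.15 ± 0.49, with 0.11 and 0.25 in litters 39 and 41 alone. ASPN reached 43.2 CPM in the 3-week boar of litter 14 and at most 10.0 CPM in the other 7. Genes of peritubular and smooth muscle cells had 15 of 20 higher and a median of 0.11. That median was 0.31 in litters 14 and 15 alone and -0.10 in litters 39 and 41 alone. The smooth muscle myosin MYH11 (57.7% unique reads) had 0.89 ± 0.35, and its value in litters 39 and 41 alone was 0.19. The adhesion molecule CDH13 averaged 12.0 ± 1.85 CPM and 19.3 ± 3.68 CPM without overlap (0.67 ± 0.18), and was higher in 4 of 4 litters. Endothelial genes (22 tested, median -0.03) and basement membrane genes (20 tested, median -0.02) were split. Erythroid genes had 5 of 10 lower and 5 higher, with a median of -0.22. That median was 0.09 with a filter of 1 CPM in 8 libraries and 0.10 in the 8 vehicle libraries alone. AHSP, which stabilises alpha globin, was at 2.25, 2.15, 1.54 and 4.82 CPM at 2 weeks and at 0.681, 0.439, 0.939 and 1.48 CPM at 3 weeks (-1.65 ± 0.65), without overlap. HEMGN of the same list went the other way, from 5.01, 5.86, 6.06 and 6.06 CPM to 8.17, 8.16, 6.80 and 7.71 CPM. Its groups did not overlap either (0.42 ± 0.21), and its value ranged from -0.16 to 0.58 over the alternative fits. The summed level of the erythroid list was between 1320 and 3729 CPM at 2 weeks and between 945 and 1795 CPM at 3 weeks, and its part in the other results was not tested.

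Hormone and growth factor pathways had a few members at a low p. In the insulin-like growth factor axis, 11 of 19 members were higher with a median of 0.27, which became -0.08 in litters 39 and 41 alone and -0.06 with the intron share in the fit. The insulin receptor INSR was at 11.1, 12.1, 8.62 and 9.44 CPM at 2 weeks and at 42.1, 30.3, 8.33 and 11.8 CPM at 3 weeks, so that its log2 fold change of 0.89 ± 0.32 lay in litters 14 and 15 and was 0.12 in the other litters alone. The binding protein IGFBP2 was at 41.9, 65.5, 41.4 and 45.9 CPM at 2 weeks and at 23.0, 29.6, 29.0 and 39.4 CPM at 3 weeks (-0.68 ± 0.26), without overlap and lower in 4 of 4 litters. In the thyroid hormone axis (13 tested, median 0.08), THRSP, a gene induced by thyroid hormone in liver and fat, was at 0.789, 0.175, 0.366 and 0.646 CPM at 2 weeks and at 2.04, 7.02, 0.508 and 2.91 CPM at 3 weeks (2.54 ± 0.84). It was higher in 4 of 4 litters, by 0.41 to 4.83 on the log2 scale. Hedgehog genes, through which Sertoli cells signal to Leydig and peritubular cells, had 10 of 12 higher and a median of 0.24, with -0.04 in litters 39 and 41 alone. Their transcription factor GLI3 had 0.64 ± 0.26 and the receptor PTCH1 0.47 ± 0.27. In litters 39 and 41 alone GLI3 was at 0.32 and PTCH1 at -0.15. Retinoic acid (17 tested) and WNT genes (23 tested) had medians of -0.02 and 0.03.

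Circadian clock genes had higher values in 16 of 19 members, with a median of 0.23 and litter medians of 0.31, 0.19, 0.33 and 0.13. Of the 19, 6 were higher in 4 of 4 litters, against 9.79% of all genes. NR1D2, a repressor of the clock, was at 58.1, 56.6, 45.8 and 70.9 CPM at 2 weeks and at 92.9, 78.4, 67.7 and 81.3 CPM at 3 weeks (0.48 ± 0.16). TEF, a clock output factor, averaged 2.76 ± 1.23 CPM and 4.89 ± 2.11 CPM (0.82 ± 0.32), with changes between 0.72 and 0.94 in the 4 litters. RORA, an activator of the clock, had 0.64 ± 0.33 and 0.11 in litters 39 and 41 alone. Each of the 21 alternative fits gave a clock median above 0, between 0.10 and 0.39. The hour of tissue collection is not given in the sources used here. Glucocorticoid response genes (13 tested) had a median of 0.19.

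Ribosomal protein genes differed between the litters. All 33 tested members had lower values at 3 weeks, with a median of -0.48, but the litter medians were -0.79, -1.06, 0.14 and -0.12. The fit of litters 39 and 41 alone gave -0.01, as did the fit that takes the intron share as a covariate. Of the 33 members 2 had an unadjusted p under 0.05, both lower, against 4.15% of all genes. RPS29, a protein of the small subunit, was at 567, 782, 483 and 1023 CPM at 2 weeks and at 231, 245, 531 and 958 CPM at 3 weeks (-0.79 ± 0.33). RPS9 had -0.62 ± 0.28 and -0.06 in litters 39 and 41 alone. The constitutive chaperone HSPA8 averaged 1513 ± 208 CPM and 1124 ± 185 CPM without overlap (-0.43 ± 0.17), and the testis chaperone gene HSPA1L 4.64 ± 0.977 CPM and 7.11 ± 0.795 CPM without overlap (0.62 ± 0.28, with 62.1% unique reads). The list of immediate early and heat shock genes had 12 of 18 lower and a median of -0.13. Interferon-stimulated genes had a median of 0.37, 20 of 24 higher and none at an unadjusted p under 0.05, with litter medians from -0.31 to 1.11. The other 11 lists, among them those of the remaining cell types, had medians between -0.20 for nerve and Schwann cells (10 of 13 lower) and 0.36 for mast cells and granulocytes (8 of 10 higher).

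**Figure D4:**
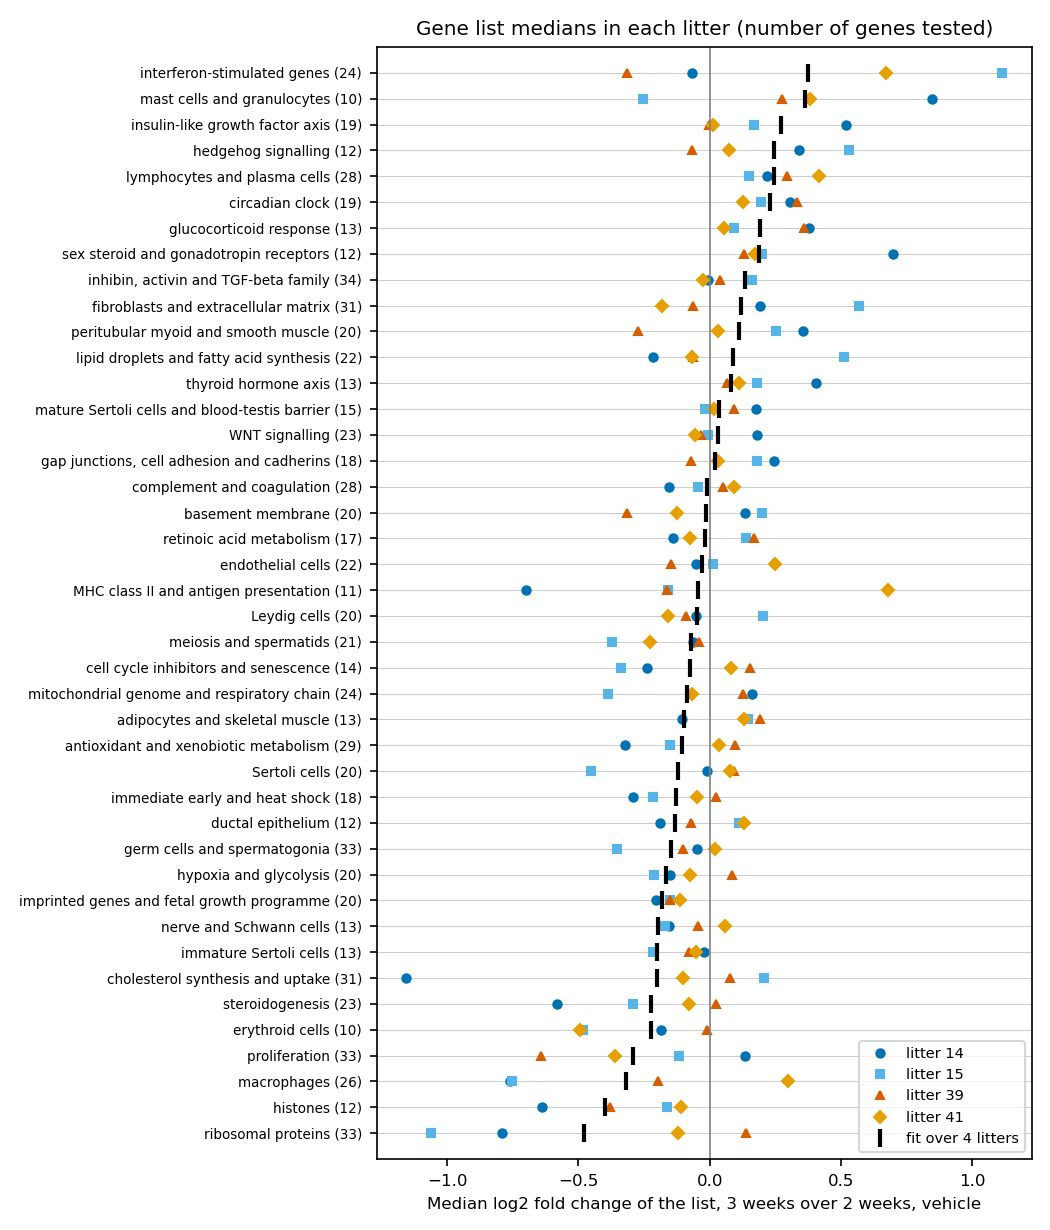
Median log2 fold change, 3 over 2 weeks, of 42 gene lists in each vehicle litter and in the fit over 4 litters, with the number of genes tested. Lists of lymphocytes, the circadian clock and imprinted genes have all 4 litters on one side of 0, while the cholesterol list ranges from -1.16 in litter 14 to 0.21 in litter 15 and the ribosomal protein list from -1.06 in litter 15 to 0.14 in litter 39.

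The difference between 3 and 2 weeks in vehicle testes was then set against that in letrozole testes. The vehicle values include the 3-week boar of litter 15 whose header names letrozole. The difference between the 2 changes was tested in the same edgeR fit, in which 0 genes passed, and 220 had an unadjusted p under 0.05 (1.41%). DESeq2 called 1, ENSSSCG00000040146 (adjusted p = 0.00933). OLFML2B was among the 5 genes with the smallest p. Its log2 fold change was -1.08 ± 0.19 in vehicle and 0.13 ± 0.19 in letrozole testes, a difference of 1.21 ± 0.27 (edgeR adjusted p = 1.0). Letrozole boars averaged 71.4 CPM of OLFML2B at 2 weeks and 80.2 CPM at 3 weeks. ENSSSCG00000040146, a gene without a name in the tables, averaged 3.59 ± 3.60 CPM and 13.3 ± 10.4 CPM in vehicle testes (2.00 ± 0.51) against -1.29 ± 0.49 in letrozole testes. SULT2A1, which adds sulfate to steroids, was at 234, 34.4, 248 and 370 CPM at 2 weeks and at 169, 237, 403 and 321 CPM at 3 weeks. Its log2 fold change was 0.78 ± 0.38 in vehicle and -1.26 ± 0.38 in letrozole testes (difference -2.04 ± 0.54), and the positive vehicle value came mostly from litter 15 (2.78). DYNC2LI1, a light chain of the ciliary dynein motor, had 0.14 ± 0.16 in vehicle and -0.75 ± 0.16 in letrozole testes. The apolipoprotein gene APOC3 was listed at 2.28 CPM in the 3-week boar of litter 41 and at 0 in the other 3 boars of that age.

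Other named genes were compared in the same way. FOSL2 had 0.97 ± 0.24 in letrozole testes and CDK1 -0.54 ± 0.19, with differences from the vehicle value of -0.14 ± 0.34 and 0.12 ± 0.27. AMDHD1 had 0.01 ± 0.23, a difference of -0.99 ± 0.32 (edgeR adjusted p = 1.0), and RASSF3 0.29 ± 0.16, a difference of -0.49 ± 0.22. Without the 3-week boar of litter 15 whose header names letrozole, the vehicle values were 0.86 for AMDHD1 and 0.83 for RASSF3. PI16 had 1.00 ± 0.26 in letrozole testes, and the difference was 0.01 ± 0.36. TIMD4 had 0.91 ± 0.38, a difference of 1.76 ± 0.54. The lists stood at medians of -0.14 for proliferation, -0.22 for ribosomal proteins, 0.21 for macrophages, 0.04 for lymphocytes and 0.16 for the circadian clock in letrozole testes, beside 0.0079 for all genes. Of the 42 lists, that of interferon-stimulated genes had the largest median difference between the arms, 1.00 at the median of its genes. In letrozole testes 24 of 24 were higher, with a median of 1.39 against 0.37 in vehicle testes. The litters were far apart. In letrozole boars of litters 14, 15, 39 and 41 the change was 0.40, 0.66, 6.11 and 2.63 for the list's gene RSAD2. It was 0.30, 0.10, 4.09 and 1.85 for MX2 and -0.25, 0.39, 2.39 and 0.44 for IFI44L, each largest in litter 39.

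Levels in the 3 vehicle boars of 5 weeks gave the next point for the same genes, with no test here. CDK1 stood at 21.0 ± 6.91 CPM, KPNA2 at 80.2 ± 10.5 CPM, CCL2 at 20.5 ± 7.36 CPM and IGFBP2 at 13.9 ± 2.88 CPM (SD, n = 3), each below the 3-week mean. AMDHD1 stood at 17.7 ± 2.64 CPM, FOSL2 at 87.7 ± 25.3 CPM and NR1D2 at 91.9 ± 7.75 CPM, each above it. OLFML2B was at 93.6 ± 32.6 CPM, ACSL6 at 89.6 ± 6.36 CPM and CDH13 at 14.0 ± 3.10 CPM, closer to the 2-week than to the 3-week mean. Litter 41 was the lowest for OLFML2B at 2 and 3 weeks (55.4 and 32.4 CPM), so the placing of OLFML2B rests on means of unlike litters. INSL3 was at 6709 ± 7019 CPM, with the 3 boars between 1758 and 14740 CPM.

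**Figure D5:**
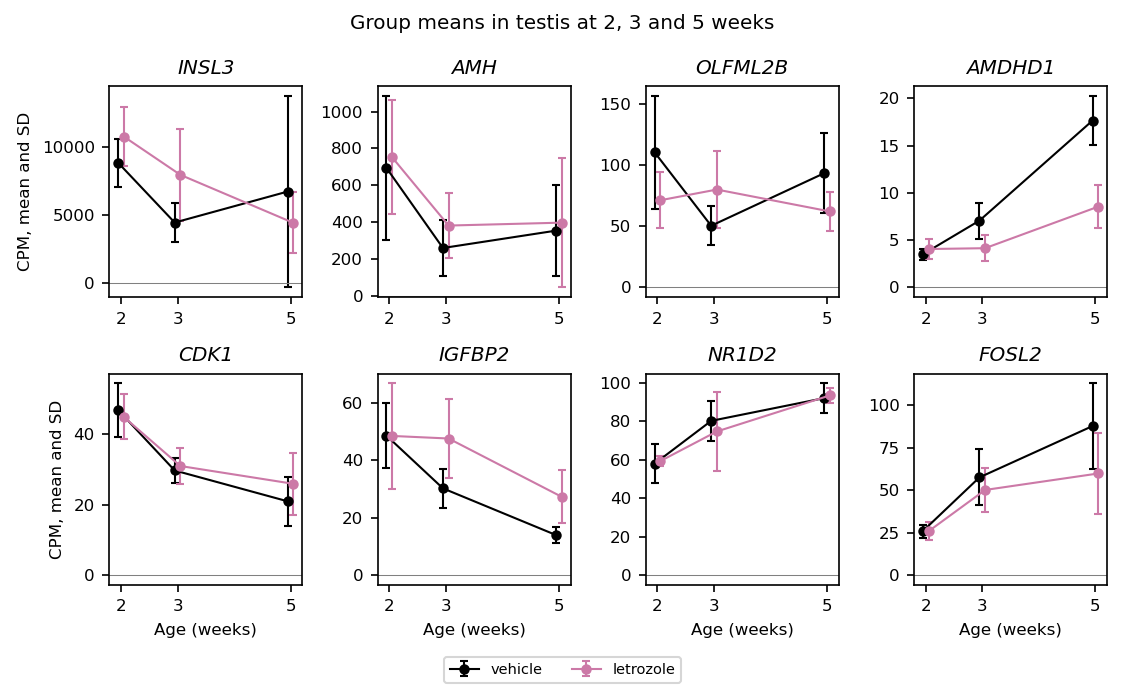
Mean CPM with SD of 8 genes at 2, 3 and 5 weeks of age in vehicle (black) and letrozole (pink) testes. Each point holds 4 boars, and that for vehicle at 5 weeks holds 3, from litters 14, 15 and 39. In vehicle testes CDK1 and IGFBP2 have lower means at each later age and AMDHD1 higher ones, and OLFML2B is lower at 3 weeks than at either other age.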

How the data were processed

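Testis libraries were polyA-selected TruSeq preparations of Trizol-extracted RNA, per the labels' protocols. The authors trimmed read 1, per the file headers, and used CLC Genomics Workbench, per the series design text. Neither the genome build nor the annotation version is given in the sources used here. The deposited tables give counts of exon, intron and whole-gene reads and the authors' RPKM, per the file headers. Total exon reads were tested, with unique exon reads and whole-gene reads in alternatives. Intron reads served only for the intron share, and RPKM only to compare levels between genes. Symbols came from the tables for 14913 of 21166 genes and from a name table for 889, and 5364 had none. Starts have 1 added. Of 14747 uniquely named genes, 14739 overlap their place in RefSeq's Sscrofa11.1 table.

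Groups came from the labels, and the litter from the middle number of the title, which no label calls the litter. The design text takes the boars of a replicate from one litter, so the numbers were taken to pair the boars. Boars with the same number deviated together from their group means at both ages (correlations across genes of 0.31, 0.21, 0.30 and 0.70). The lane also went with the number, so litter and lane cannot be told apart in these correlations. Boars with different numbers were not compared in this way. One vehicle boar of litter 41 with an unclear age entered only alternatives. The model had 23 libraries, 6 groups and the litter block (edgeR 4.0.16, R 4.3.3; TMM scaling; filterByExpr, which removed 5569 genes; Benjamini-Hochberg at 0.05). SE is the absolute log2 fold change over the square root of F. Changes within a litter use log2 CPM with a prior count of 2. DESeq2 1.42.0 was an alternative. The code was tested on simulated data.

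Genes were named by a rule: the 10 higher and 10 lower genes with the smallest p, a symbol, a mean log2 CPM of at least 1 and the same direction in 4 litters, the 3 smallest p of each of 42 lists (some of these are given by list values alone), the 5 smallest p of the difference from letrozole, and a fixed set of hormone genes. A few genes that this rule covers are not reported here. The members and lists were chosen with earlier results of these data known. Lists are described by counts and medians without a test.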

Additional observations from a re-analysis of the deposited data

Results flagged for a closer look

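In 14 of 146 groups of 4 boars tested, 1 boar lay farther from the others than Dixon's test allows at 95%. Chance flags about 1 in 20 independent groups. These groups are genes measured in the same boars and named partly by their p, so that rate is no measure for the count. The boars of litter 41 account for 11 of the 14. The 2-week boar of litter 41 had the lowest CPM of its group for BTBD11 (2.58), for SRD5A1 (5.22) and for GLI3 (3.87), and the highest for AARD (1.79), SALL4 (6.31) and ENSSSCG00000040146 (8.99). Its litter mate of 3 weeks had the highest CPM of its group for CKS2 (69.2), CYP11A1 (3892), TIMD4 (3.08) and APOC3 (2.28, with 0 in the other 3 boars), and the lowest for MSH5 (2.91). The 3-week boar of litter 14 had the lowest value of CD2 (2.08) and the highest of ASPN (43.2, with the others between 7.71 and 10.0). The 3-week boar of litter 15, whose file header names letrozole, was the highest for SYCE2 (1.65). The cause of these values was not tested.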

How the results depend on the processing

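With the counts of calls at an adjusted p under 0.05, every edgeR alternative with 4 or 3 litters gave 0 higher, 0 lower and 0 different genes, as did litters 39 and 41 alone, and leaving out a replicate gave 0 to 0. Without the replicate block, that is with no pairing by litter, the counts were also 0. DESeq2 gave 3 higher (RASSF3, FOSL2, AMDHD1), 2 lower (OLFML2B, RNASE1) and 1 different (ENSSSCG00000040146). Litters 14 and 15 alone, chosen after seeing the data, gave 3 higher (ENSSSCG00000035738, ENSSSCG00000038928 and CDK6, the last with 2.24) and 1 different (ENSSSCG00000014910). At an unadjusted p under 0.05 these 2 litters had 3264 genes, litters 39 and 41 alone 381, the fit with lane terms 611 and that with the intron share 684, against 1379. Fewer litters entered some of these fits, and the cause of the other differences was not tested.

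Of 1460 values of 70 named genes under 21 alternatives, 1426 kept their direction and side of the threshold. Some values changed sign, as follows. Without 1 replicate (1 litter), the log2 fold change ranged from -0.17 to 0.29 for FSHR, -0.24 to 0.21 for STAR, -0.022 to 0.29 for CYP11A1, -0.13 to 0.012 for CYP17A1, -0.28 to 0.053 for CYP19A1 and -0.038 to 0.38 for ESR1. With the intron share as a covariate the values were 0.23 for STAR, 0.23 for CYP17A1, 0.12 for CYP19A1 and -0.017 for ESR1. With that covariate and no replicate block they were -0.10 for FSHR, 0.16 for STAR, 0.030 for CYP19A1, -0.28 for ESR1 and -0.12 for PTCH1, and without the block alone -0.028 for FSHR. Litters 39 and 41 alone gave 0.024 for STAR, 0.048 for CYP17A1, -0.21 for ESR1, -0.15 for PTCH1 and 0.0031 for RPS29, and litters 14 and 15 alone -0.073 for FSHR. Lane terms gave 0.14 for CYP17A1, all gene reads 0.20 for SYCE2, and the boar of unclear age at 3 weeks 0.052 for CYP17A1 and -0.0003 for DYNC2LI1. List medians kept within the spread of their litters in 829 of 882 values, but 94 of the 882 had the opposite sign, in 29 of 42 lists, among them ribosomal proteins (-0.48 to 0.08), MHC class II (-0.05 to 0.26) and Sertoli cells (-0.12 to 0.06). Depth limits the low genes, such as GZMB and MS4A1.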
